A study of Homo sapiens with 41 samples.

Results

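Cohesin, the ring-shaped complex that folds chromatin into loops, is usually mapped to sites that also hold CTCF, and the sites described here are those that do not. Sites bound by RAD21, a core subunit of the ring, were taken from 3 lists of peaks from unstressed T47D cells, merged where they overlapped by 1 bp. A site was kept if at least 2 of the 3 lists held it and no peak in any of 3 CTCF lists from unstressed cells overlapped it, on chromosomes 1 to 22 and X. The rule gave 487 sites, called CTCF-free sites below, out of 17443 cohesin sites with a peak in at least 2 RAD21 lists. The other 16956 are called CTCF-bound sites, and 22917 CTCF sites in at least 2 CTCF lists had no RAD21 peak without stress.

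The measurements are chromatin immunoprecipitation sequencing of RAD21, CTCF and RNA polymerase II (Pol II) in T47D cells, a widely used luminal breast cancer line of human origin that expresses oestrogen and progesterone receptors. All cells had been kept without steroid hormones and then without serum, so that every group, unstressed cells included, is hormone-depleted and synchronised in G0/G1. RAD21 was mapped without stress (3 libraries), after 1 h in 110 mM NaCl by the sample labels (100 mM in the design text of the series), a hyperosmotic stress (3 libraries), and after 1 h of NaCl followed by 60 min in isotonic medium, called recovery (3 libraries). Each of these states also had 1 RAD21 library whose title names triptolide (500 nM), which blocks transcription initiation. Of these RAD21 titles, only that of recovery calls it a pre-treatment. The CTCF libraries comprised 3 from unstressed cells, 2 after 7.5 min of NaCl, 1 after 30 min, 3 after 1 h, 1 from recovery and 1 with triptolide in each of the 3 states, and Pol II had 2 libraries at 1 h and 2 without stress. Nothing in the labels says whether replicates are separate cultures, so the p-values below measure the spread between these libraries.

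As background, cohesin is loaded onto DNA and moves along it, reeling in loops until it meets CTCF bound to its motif in the right orientation, which halts it. Cohesin without CTCF has been mapped in many cell types at active promoters and enhancers, beside transcription factors, the loading factor NIPBL and Pol II, and transcribing Pol II can push the ring along genes. Triptolide stops new Pol II from entering genes by acting on the general factor TFIIH.

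The promoters of 4 genes with a CTCF-free site are shown with that of ALKBH2, a DNA repair enzyme whose start lies under a CTCF-bound site, so that a promoter with the letters of the CTCF motif can be read beside promoters without them. The 4 genes are the first, in the order of the rule for named genes, whose promoter window the site overlaps, which leaves out ATP8B1 and POU2AF3, the ALKBH2 promoter was picked as the one under the most enriched CTCF-bound site with the CTCF core and no other searched motif, and each run is the 250 bases before the start, 5′ to 3′ on the gene's strand (RefSeq, GRCh38.p14). Capitals mark a searched motif.
ID2 (chr2:8681806-8682055, plus strand): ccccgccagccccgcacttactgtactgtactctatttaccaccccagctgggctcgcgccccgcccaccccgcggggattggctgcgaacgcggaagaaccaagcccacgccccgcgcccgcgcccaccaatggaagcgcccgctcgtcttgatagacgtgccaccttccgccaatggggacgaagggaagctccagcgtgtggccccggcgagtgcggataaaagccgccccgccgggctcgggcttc
MRPL3 (chr3:131502972-131503221, minus strand): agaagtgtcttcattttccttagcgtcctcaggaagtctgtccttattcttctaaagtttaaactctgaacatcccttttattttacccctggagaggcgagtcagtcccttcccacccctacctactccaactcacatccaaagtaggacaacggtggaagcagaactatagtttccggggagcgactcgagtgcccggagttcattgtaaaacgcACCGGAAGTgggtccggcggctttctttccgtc
ELF3 (chr1:202010337-202010586, plus strand): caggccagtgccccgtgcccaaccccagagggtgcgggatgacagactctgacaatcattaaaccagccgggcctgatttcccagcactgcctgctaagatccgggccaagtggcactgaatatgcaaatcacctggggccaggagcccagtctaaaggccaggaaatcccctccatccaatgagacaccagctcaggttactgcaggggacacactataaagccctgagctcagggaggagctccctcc
ARHGEF26 (chr3:154121140-154121389, plus strand): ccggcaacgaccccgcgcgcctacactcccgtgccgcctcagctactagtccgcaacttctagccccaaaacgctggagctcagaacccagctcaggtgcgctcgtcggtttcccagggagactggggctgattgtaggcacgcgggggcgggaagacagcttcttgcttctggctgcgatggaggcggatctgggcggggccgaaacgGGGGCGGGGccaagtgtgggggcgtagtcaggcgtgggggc
ALKBH2 (chr12:109093473-109093722, minus strand): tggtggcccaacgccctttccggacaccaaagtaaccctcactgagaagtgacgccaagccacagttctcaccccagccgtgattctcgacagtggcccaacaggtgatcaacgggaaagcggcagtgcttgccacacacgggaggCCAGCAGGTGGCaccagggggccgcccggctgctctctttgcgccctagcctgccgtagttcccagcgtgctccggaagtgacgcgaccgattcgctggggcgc

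The capitals in ALKBH2 are the CTCF core, a string of 12 letters with 4 free positions searched on both strands, those in MRPL3 the GABP letters ACCGGAAGT and those in ARHGEF26 the SP letters GGGGCGGGG, while the ID2 and ELF3 windows held none of the 15 motifs searched. At MRPL3 the CTCF-free site covers only the last bases of the run shown, and the GABP letters lie outside it. The windows counted next run from 250 bases before a start to 50 after it. The CTCF core was in 0 of the 181 promoter windows overlapped by CTCF-free sites, which allows a share of up to 1.66%, in 167 of 2171 windows under CTCF-bound sites (7.69%) and in 842 of all 34789 windows (2.42%). This follows the rule, which removed sites with a CTCF peak, and is a description. The SP letters stood in 30.4% of windows under CTCF-free sites, 27.8% under CTCF-bound sites and 15.7% of all windows, and the AP-2 letters GCCNNNGGC in 32.6%, 37.4% and 23.2%. Median GC content was 66.0%, 69.7% and 58.7% in the same order, so both groups of promoters are GC-rich. The FOX letters TGTTTAC were in 9 of 181 windows (4.97%), 1.98% of windows under CTCF-bound sites and 3.42% of all, and the GABP letters in 4 of 181 (2.21%), 0.783% and 1.00%. Windows of alternative starts of a gene overlap each other, and no test was made on these shares.

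Values of RAD21 enrichment without stress chose the sites and are given as a description. CTCF-free sites were in the lower part of each list, with a median deposited fold enrichment over the peak caller's background of 5.52, 4.62 and 4.82 in replicates 1 to 3, against 9.13, 8.22 and 9.97 at CTCF-bound sites. Their median percentile of fold within the list was 15.7, 20.4 and 15.7, against 54.7, 58.1 and 65.4. Of the 487 sites, 92 were in all 3 RAD21 lists, 263 in replicates 1 and 3, 94 in replicates 1 and 2, and 38 in replicates 2 and 3. Just outside the rule lay 2068 sites with a peak in 1 RAD21 list and no CTCF, with median percentiles of 10.8, 12.6 and 14.5, and 362 sites in at least 2 RAD21 lists with CTCF in exactly 1 list, with medians of 6.02, 13.7 and 5.60. The median width was 476 bp, against 468 bp at CTCF-bound sites. Of the 487 sites, 86 had a CTCF peak within 1 kb, the median distance being 9321 bp.

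The RAD21 libraries differ in how much was called, which touches every share below. List lengths were 18297, 13762 and 24931 peaks in replicates 1 to 3 without stress, 4761, 7843 and 6630 at 1 h, and 4397, 20400 and 6492 in recovery. The triptolide lists held 40969 peaks without stress, 3344 at 1 h and 22967 in recovery. Replicate 3, the CTCF recovery library and the triptolide libraries were deposited as a second set, and read totals of the libraries are not in the lists. Titles and pre-treatment tags disagree on triptolide in 6 libraries of that set. Among the RAD21 lists, the unstressed and 1 h triptolide libraries are tagged untreated and recovery replicate 3 is tagged as triptolide-treated, as is the CTCF recovery library. The titles were followed, and if the tags were right, triptolide could not be compared at all. The luminal identity of the cells could be checked in the Pol II lists, where 8 luminal breast genes had a median of 85.4 and 81.8% of their span in Pol II regions, against 0.237 and 1.49% for 12 haematopoietic markers.

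Sites without CTCF that kept RAD21 peaks at 1 h in replicates 1 and 3 were nearly all at 3 places in the genome, which are set out before the other results because they decide several small counts. They were picked out after their values were seen. Inside ESR1 (chr6:151656672-152129619), the gene of oestrogen receptor alpha, 4 CTCF-free sites had RAD21 peaks in replicates 1 and 3 both without stress and at 1 h, in all 3 triptolide lists, and in none of the replicate 2 lists. At the first of them (chr6:151944133-151944694) the fold enrichment was 21.4 and 23.5 without stress, 16.3 and 22.3 at 1 h, and 5.54 and 8.08 in recovery, for replicates 1 and 3, and it was 30.5, 15.6 and 32.2 with triptolide in the same states. This site stood at the 98.0 and 99.8 percentile of the 1 h lists of replicates 1 and 3, and had no peak in that of replicate 2. The other 3 ESR1 sites had folds of 7.65 to 11.4 without stress and 7.73 to 10.5 at 1 h. A similar place in ESR1 (chr6:152060805-152061312) had peaks in both of these 1 h lists but in only 1 list without stress, and so lay just outside the rule.

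LRRC8A, which encodes the essential subunit of the volume-regulated anion channel that swollen cells open, held a site of the same pattern (chr9:128915926-128916449). Its fold was 12.3 and 6.24 without stress, 4.78 and 5.39 at 1 h, and 13.7 and 9.18 in recovery, for replicates 1 and 3, with no peak in replicate 2. At the start of chromosome 1 (chr1:628967-634912, in the span of LOC102724250), a stretch known to carry a nuclear copy of mitochondrial DNA, 6 CTCF-free sites lay side by side with folds of 1.55 to 3.55 without stress, and 3 of them had a peak in replicate 1 at 1 h. None of these 11 sites had a peak in any replicate 2 list. The gene table used gives spans only, so whether the ESR1 and LRRC8A sites lie on exons was not examined. Reads from cDNA of these genes would fall on exons, and whether these peaks are signal from chromatin was not tested. What sets the pattern was not tested either. Results that rest on these sites are given with and without them.

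**Figure D1:**
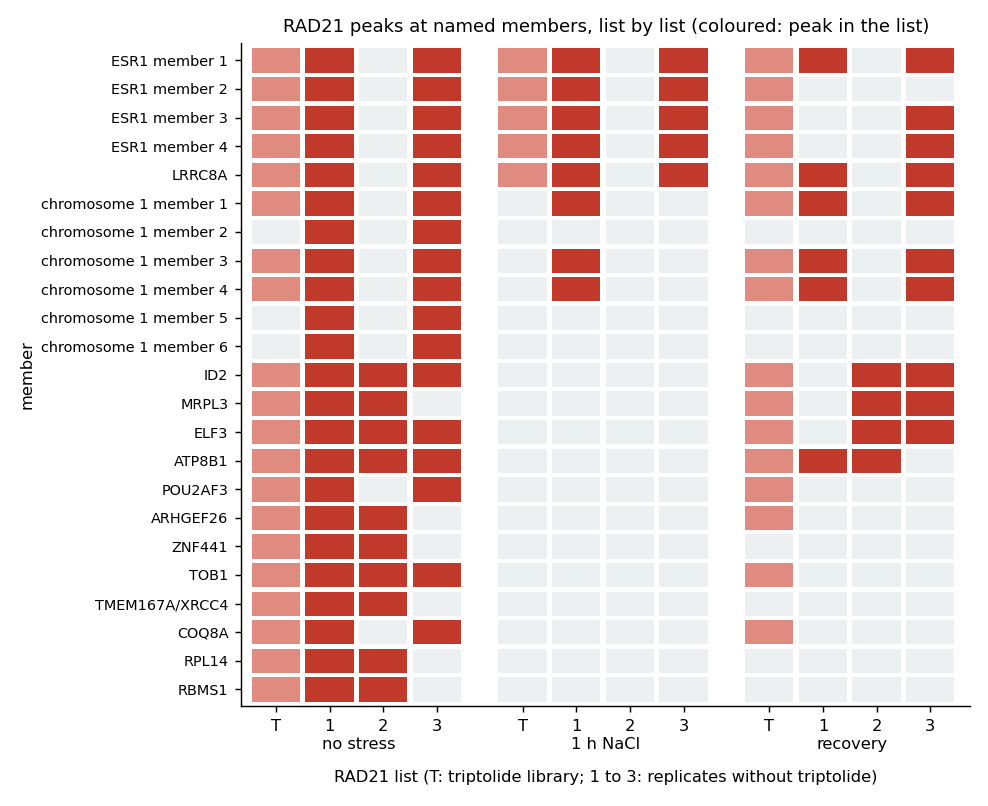
RAD21 peaks at 23 CTCF-free sites (rows) in each of the 12 RAD21 lists (columns), grouped by state, with the triptolide library (T) left of replicates 1 to 3, where a coloured cell is a peak. The ESR1 and LRRC8A sites have peaks at 1 h in replicates 1 and 3 and none in replicate 2, while the named sites from ID2 downwards have none in any 1 h list.

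CTCF-free sites were more often near the ends of protein-coding genes than CTCF-bound sites were, in each of the 3 RAD21 lists. Within 1 kb of either end of a gene lay 131 of the 487 CTCF-free sites (26.9%), against 16.3% of CTCF-bound sites and 13.1% of CTCF sites without cohesin. Among sites just outside the rule, the share was 54.97% of the 362 with CTCF in exactly 1 list. It was 24.8% of those with a peak in 1 RAD21 list and no CTCF. Nearness to gene ends is therefore not shown to be particular to cohesin sites without CTCF. Inside gene bodies were 148 (30.4%), against 36.7% of CTCF-bound sites, and between genes 208 (42.7%), against 46.9%. Of the 455 CTCF-free sites off chromosome 8, for which starts and strands were at hand, 151 (33.2%) were within 1 kb of a start in the RefSeq promoter table, which also lists genes that do not code for protein, against 15.6% of CTCF-bound sites. Only 4 (0.879%) were at the other end of a protein-coding gene with no start nearby, against 2.61% of CTCF-bound sites. The gene-end sites thus lay mostly at starts.

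Library by library, the share near a gene end was 25.6, 47.3 and 17.8% of the CTCF-free sites in replicates 1, 2 and 3, against 16.4, 21.3 and 13.2% of the CTCF-bound sites. The mean difference was 13.3 percentage points, higher for CTCF-free sites in 3 of 3 libraries (exact sign permutation, 2-sided p = 0.25, the smallest that 3 libraries allow). These 3 lists chose the sites, and each site is in at least 2 of them. The 3 differences are therefore not independent, and they are a description that the p-value does not support. The size of this share depends on the libraries in the rule. It was 16.2% when replicate 2 was left out of the rule, 34.6% without replicate 1 and 48.7% without replicate 3, and 41.5% when CTCF replicate 3 was left out. At the other extreme, 178 CTCF-free sites (36.6%) were over 10 kb from any protein-coding gene, against 33.6% of CTCF-bound sites.

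**Figure D2:**
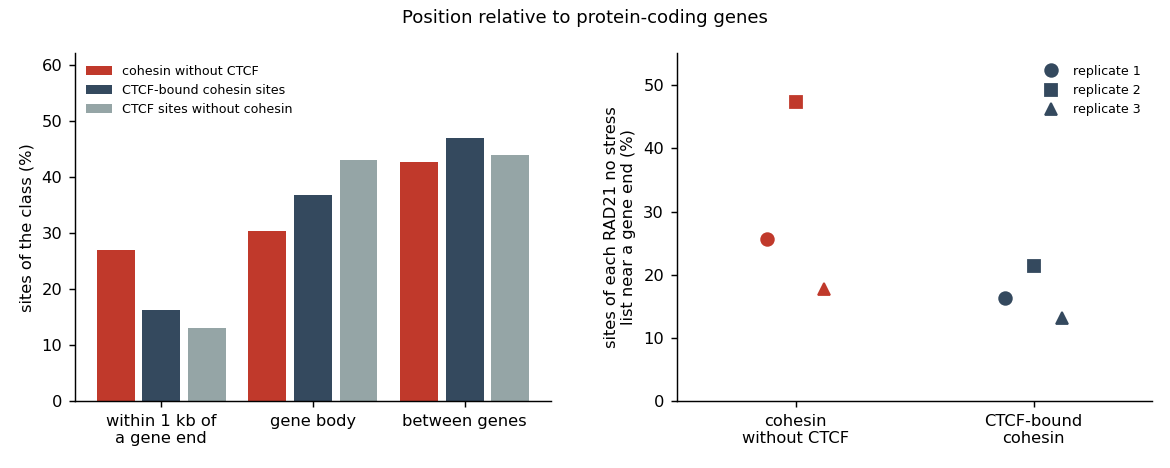
Left, share (%) of CTCF-free, CTCF-bound and CTCF-only sites within 1 kb of a protein-coding gene end, inside a gene or between genes. Right, share near a gene end among the sites in each RAD21 list without stress, by replicate, where the CTCF-free sites are at 25.6, 47.3 and 17.8%, above the CTCF-bound sites of the same list.

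Most CTCF-free sites lay in regions called for Pol II, whether or not a gene end was near. Without stress, a Pol II region overlapped 75.2 and 84.8% of CTCF-free sites in the 2 libraries, against 38.0 and 44.3% of CTCF-bound sites, a mean difference of 38.9 points (exact sign permutation p = 0.5, the smallest that 2 libraries allow). Between genes the shares were 73.6 and 82.2% of CTCF-free sites, against 28.7 and 33.4% of CTCF-bound ones. In gene bodies they were 73.0 and 83.1%, against 37.6 and 44.0%, and at gene ends 80.2 and 90.8%, against 65.6 and 76.1%. In both libraries the gap to CTCF-bound sites was wider away from gene ends. Sites just outside the rule came closer, at 66.3 and 75.1% with CTCF in exactly 1 list. Those in 1 RAD21 list without CTCF were at 65.7 and 76.02%. In the lowest quintile of RAD21 enrichment without stress, CTCF-bound sites were at 53.03 and 62.2%, against 73.2 and 85.1% of CTCF-free sites. The full gap is therefore not shown to be particular to sites without CTCF. The regions themselves were broad, with a median width of 5674.5 and 5875 bp at CTCF-free sites, 3236 and 2826 bp at CTCF-bound sites and 1063 and 1111 bp over each whole list. In all, 332 CTCF-free sites (68.2%) were in a Pol II region in both libraries, where 28.3% of all cohesin sites were, and 40 (8.21%) in neither, against 43.9% of all cohesin sites.

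After 1 h of NaCl, fewer CTCF-free sites were in a Pol II region. The shares were 41.7 and 46.2% at 1 h, against 75.2 and 84.8% without stress, and the 2 groups of libraries did not overlap. The difference was -36.0 points (exact permutation test, 2-sided p = 0.33, the smallest that 2 libraries against 2 allow). CTCF-bound sites were at 23.1 and 27.3% at 1 h, against 38.0 and 44.3% without stress, a difference of -15.9 points. As a ratio, the mean share at 1 h was 0.549 of that without stress at CTCF-free sites and 0.613 at CTCF-bound sites. The gap between the classes was 18.7 points at 1 h, against 38.9 points without stress, a difference of -20.1 points with p = 0.33 by the exact permutation test, again the smallest possible. Among CTCF-free sites, 105 (21.6%) were in both Pol II lists without stress and in neither at 1 h, where 11.6% of all cohesin sites were, and 93 (19.1%) were in all 4 lists, against 6.01% of all cohesin sites. The reverse, both 1 h lists and neither without stress, held for 4 CTCF-free sites (0.821%) and 2.09% of all cohesin sites.

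Many Pol II regions have low deposited significance, and these levels move with the threshold. With only regions of -log10 q of at least 1.3, which are 20.0 and 7.63% of the regions at 1 h and 50.0 and 51.5% of those without stress, the shares of CTCF-free sites were 8.83 and 4.11% at 1 h, against 45.0 and 49.9% without stress. The same regions held 5.07 and 2.28% of CTCF-bound sites at 1 h, against 21.0 and 24.5% without stress. CTCF-free sites stayed above CTCF-bound ones in each of the 4 libraries.

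**Figure D3:**
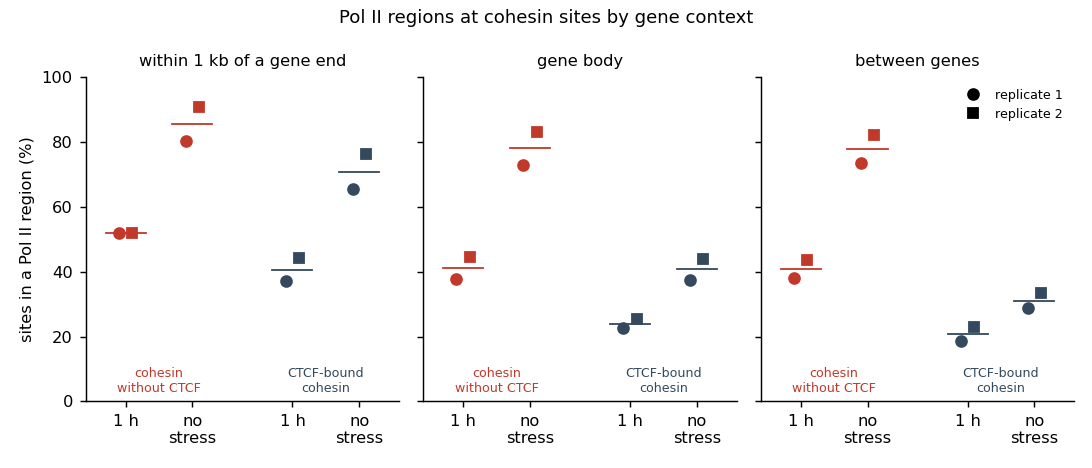
Share (%) of sites in a Pol II region at 1 h of NaCl and without stress, for CTCF-free and CTCF-bound sites, in panels by gene context. Points are the 2 libraries of each state and bars their mean, and in each panel the CTCF-free sites are above the CTCF-bound sites of the same state.

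RAD21 peaks at CTCF-free sites were almost absent after 1 h of NaCl. A peak was left at 8, 49 and 6 of the 487 sites in replicates 1 to 3, which is 1.64, 10.1 and 1.23%, with exact Clopper-Pearson 95% intervals of 0.712 to 3.21%, 7.54 to 13.1% and 0.453 to 2.66%. The mean was 4.31% ± 4.98 (SD, n = 3), against 35.1% ± 7.29 (SD, n = 3) at CTCF-bound sites, which were at 27.0, 41.3 and 36.9%. The difference was -30.8 points, lower at CTCF-free sites in 3 of 3 libraries (exact sign permutation p = 0.25, the smallest possible). All 8 sites of replicate 1 were among the ESR1, LRRC8A and chromosome 1 sites. Without those 11 sites the counts were 0, 49 and 1 of 476, the 0 allowing a share of up to 0.630%. The 1 site left in replicate 3 was at the start of TMEM135, which encodes a peroxisomal membrane protein. That site also had a CTCF peak in CTCF replicate 3 at 1 h and in the CTCF recovery library.

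In no 1 h list at all were 430 CTCF-free sites (88.3%), where 50.8% of all cohesin sites were lost in this sense. In all 3 lists at 1 h were 0 CTCF-free sites, which allows a share of up to 0.616%, where 21.4% of all cohesin sites were kept. In 1 list were 51, against 17.1% of all cohesin sites, and in 2 lists were 6, against 10.7% of them. Those 6 were the 4 ESR1 sites, LRRC8A and TMEM135. Without the 11 sites, 427 of 476 (89.7%) were lost.

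The sites left at 1 h in replicate 2 were none of the 11 sites set apart above. Of the 49, 42 were in the list without stress of the same replicate and 45 in its recovery list, and 23 (46.9%) were near a gene end. Their median fold was 4.29, at the 13.6 percentile of that list. The 8 sites of replicate 1 had a median fold of 6.26 at the 35.8 percentile and a lowest fold of 1.54, the 3 on chromosome 1 standing at the bottom of the list with percentiles of 0.210 to 0.630. The 6 sites of replicate 3 had a median fold of 8.53 at the 74.3 percentile.

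CTCF-free sites ranked low in the lists without stress, and the classes were also set side by side within quintiles of enrichment without stress over all cohesin sites. The lowest quintile held 355 CTCF-free sites (72.9%) and 3134 CTCF-bound ones. There, 0.845, 10.99 and 0.282% of CTCF-free sites had a peak at 1 h in replicates 1 to 3, against 2.04, 19.4 and 3.57% of CTCF-bound sites. In the second quintile, with 85 CTCF-free sites, the shares were 0, 5.88 and 0%, against 6.46, 19.1 and 12.9%. In the third, 3 of 34 CTCF-free sites (8.82%) had a peak in each list, against 17.1, 30.4 and 29.8% of CTCF-bound sites, and in replicates 1 and 3 those 3 were ESR1 or LRRC8A sites. The share lost from every 1 h list was 88.2% against 79.0% in the lowest quintile, 94.1% against 74.3% in the second and 82.4% against 55.8% in the third. In the fourth, 1 of 11 CTCF-free sites (9.09%) had a peak in each list, against 36.5, 51.6 and 52.3% of CTCF-bound sites. In replicates 1 and 3 that site was in ESR1, and in the lowest quintile every replicate 1 peak was at a chromosome 1 site. Without the ESR1, LRRC8A and chromosome 1 sites, replicate 1 was thus at 0% in every quintile. These quintiles rest on the values used by the rule, so they are a description with no test and support nothing.

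**Figure D4:**
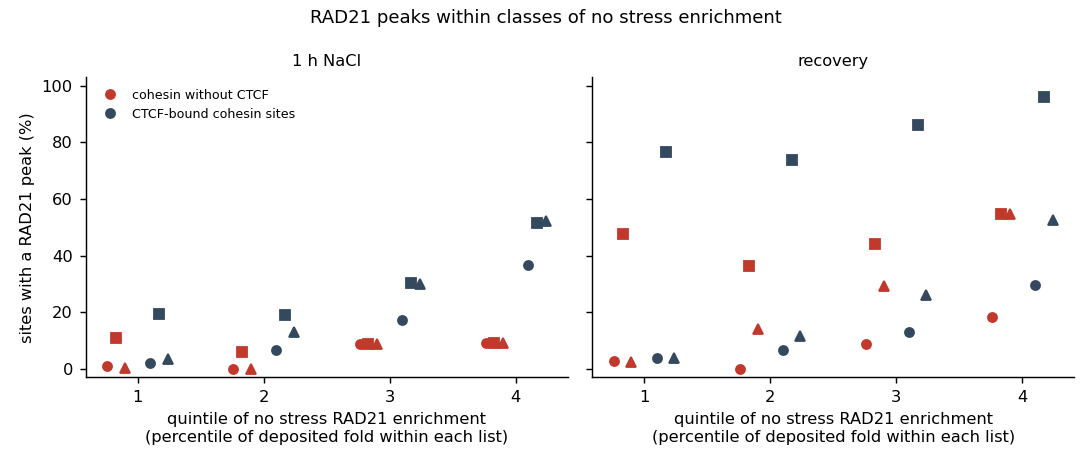
Share (%) of CTCF-free and CTCF-bound sites with a RAD21 peak at 1 h (left) and in recovery (right), within quintiles of RAD21 enrichment without stress, lowest to the fourth. Each point is 1 library (circle, square and triangle for replicates 1 to 3), and at 1 h the CTCF-free points lie below those of the same replicate at CTCF-bound sites, while in recovery those of replicate 3 lie above in the second to the fourth quintile. The highest quintile, with 2 CTCF-free sites, is not drawn. All replicate 1 peaks at CTCF-free sites at 1 h are at ESR1, LRRC8A or chromosome 1 sites.

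RAD21 peaks were seen again at CTCF-free sites in recovery chiefly in replicate 2. A peak was present at 17, 222 and 38 sites in replicates 1 to 3 (3.49, 45.6 and 7.80%), a mean of 19.0% ± 23.2 (SD, n = 3), against 25.5, 86.7 and 37.2% of CTCF-bound sites. Recovery was 14.6 points above 1 h at CTCF-free sites, higher in recovery in 3 of 3 replicate numbers (exact permutation test, 2-sided p = 0.5, where 0.1 is the smallest that 3 against 3 allows), so the difference was within the spread between libraries. It was 18.7 points in the first set of libraries alone and 6.57 points in the second; the second has 1 pair and no test. When every 1 h and recovery list was shortened to the same number of strongest peaks, recovery was 1.03 points above 1 h, and without recovery replicate 2 it was 1.33 points. The list of that replicate holds 20400 peaks, against 4397 and 6492 in the other recovery lists. The gap to CTCF-bound sites was -30.8 points in recovery and -30.8 points at 1 h, and their difference of -0.0965 points (exact permutation p = 1) was within the spread between libraries. Within quintiles the order in recovery varied by library. In replicate 3, CTCF-free sites were at 2.25, 14.1, 29.4 and 54.5% in the lowest to the fourth quintile, against 3.70, 11.5, 26.2 and 52.4% of CTCF-bound sites, so they were higher in 3 of the 4. In replicate 1 they were at 2.82, 0, 8.82 and 18.2%, against 3.92, 6.64, 12.97 and 29.6%, and in replicate 2 at 47.6, 36.5, 44.1 and 54.5%, against 76.7, 73.8, 86.2 and 96.0%, lower in all 4 in both replicates.

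Of the 430 CTCF-free sites lost at 1 h, 245 were also in no recovery list (50.3% of the 487, where 12.6% of all cohesin sites were), 165 were in 1 recovery list (33.9%, where 30.0% were) and 20 in at least 2 (4.11%, where 8.26% were). In all 3 recovery lists were 4 CTCF-free sites, against 20.7% of all cohesin sites. All 4 were between genes and at least 99158 bp from any protein-coding gene, and they had been chosen by that count. The strongest of them (chr5:81850966-81852253) had folds of 15.5, 16.4 and 19.3 without stress and a peak at 1 h in replicate 2. In recovery replicate 2, CTCF-free sites near gene ends had a peak in 65.6% of cases and those between genes in 34.6%, but replicates 1 and 3 ran the other way, with 2.29 and 3.05% at gene ends and 3.37 and 9.13% between genes. No relation of position to recovery held across the libraries.

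**Figure D5:**
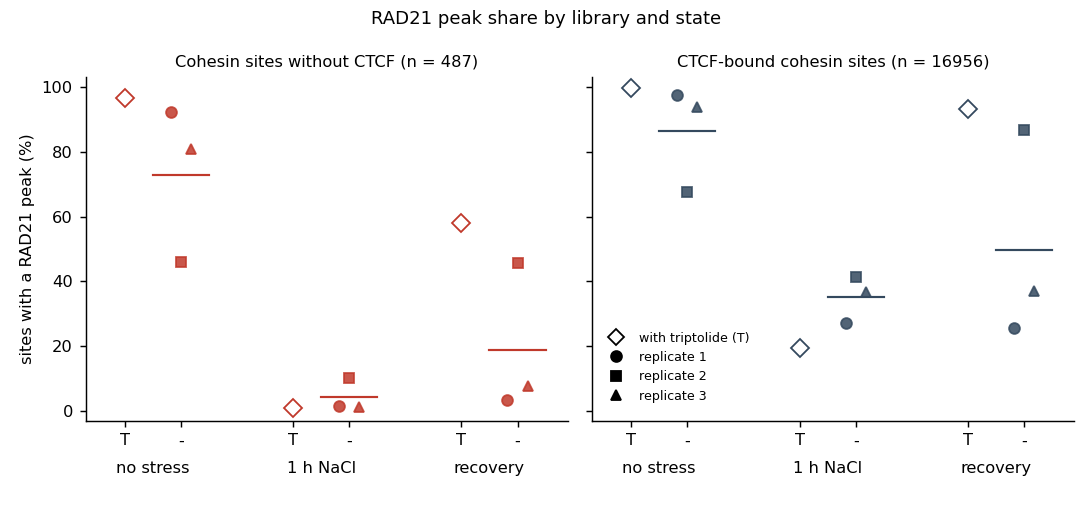
Share (%) of CTCF-free sites (left) and CTCF-bound sites (right) with a RAD21 peak in each library, by state, with the triptolide library (T, open diamond) left of the libraries without triptolide (-) and their mean as a bar. Shares at 1 h lie at 1.03 to 10.1% for CTCF-free sites, and in recovery replicate 2 and the triptolide library stand above replicates 1 and 3. The values without stress are set by the rule.

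Among sites near gene ends that were lost at 1 h and had a peak in at least 2 recovery lists, all 4 that exist are given. At ID2, a helix-loop-helix protein that holds back differentiation factors, the site (chr2:8681896-8682385) had folds of 5.83, 6.83 and 4.80 without stress and peaks in recovery replicates 2 and 3. At ELF3, an ETS factor of epithelial cells, the site (chr1:202010428-202011074) had folds of 4.78, 4.75 and 5.26 and the same pattern, and its nearest CTCF peak was 474 bp away. At MRPL3, a protein of the mitochondrial ribosome, the site (chr3:131502674-131502989) had folds of 5.13 and 4.61 in replicates 1 and 2. At ATP8B1, a phospholipid flippase, the site (chr18:57802931-57803637) had folds of 5.87, 4.20 and 2.61 and was the one of the 4 with a recovery peak in replicates 1 and 2. All 4 sites were in both Pol II lists without stress and in both triptolide lists without stress and in recovery. At 1 h ID2 and ELF3 were in both Pol II lists, ATP8B1 in 1 and MRPL3 in none. The sites at ID2 and ATP8B1 also had a CTCF peak in the CTCF recovery library, and those at ELF3 and MRPL3 did not.

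Of the sites near gene ends absent from all 1 h and all recovery lists, the most enriched were at POU2AF3 (a coactivator of POU factors), ARHGEF26 (a guanine nucleotide exchange factor), ZNF441 (a zinc finger protein), TOB1 (an antiproliferative protein), the shared start region of TMEM167A and XRCC4 (a DNA end-joining factor), COQ8A (coenzyme Q synthesis), RPL14 (a protein of the large ribosomal subunit) and RBMS1 (an RNA-binding protein). The site at POU2AF3 (chr11:111309451-111310487) had folds of 7.17 and 9.17 in replicates 1 and 3, and that at TOB1 (chr17:50867396-50868052) had 5.70, 4.82 and 6.94. All 8 had a peak in the unstressed triptolide list, and those at POU2AF3, ARHGEF26, TOB1 and COQ8A also in the triptolide recovery list. All but the TMEM167A site were in both Pol II lists without stress.

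The most enriched CTCF-free sites far from genes were picked over all fates. Besides the site on chromosome 5, they lay at chr15:61750197-61751167, with folds of 11.6, 8.53 and 14.0, and at 2 places on chromosome 8 (chr8:115838089-115838890 and chr8:115987487-115988617), with folds of 11.7 and 9.67, and 9.78 and 15.5, in replicates 1 and 3. Both chromosome 8 sites were lost at 1 h, and they were in 1 and 2 recovery lists. The sites named near gene ends were picked within single fates. Folds without stress are also values the rule used, so the folds of the groups are not compared.

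With triptolide, CTCF-free sites had RAD21 peaks before stress and almost none at 1 h. In unstressed cells, 471 sites (96.7%) had a peak in the triptolide library, where 99.6% of all cohesin sites did, against 80.7% in replicate 3, the library without triptolide of the same set. At 1 h, 5 sites had one with triptolide (1.03%), where 18.8% of all cohesin sites did, against 1.23% in replicate 3 without it, and the 5 were the 4 ESR1 sites and LRRC8A, so that 0 of the other 476 remained. In recovery, 282 sites (57.9%) had a peak with triptolide, where 92.2% of all cohesin sites did, against 7.80% in replicate 3. There is 1 triptolide library per state, so no test of triptolide was possible.

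These shares changed with the length of the lists compared. With the triptolide list shortened to the length of the replicate 3 list, by strongest peaks, 71.9% of CTCF-free sites had a peak with triptolide against 80.7% without it in unstressed cells, and 2.67% against 7.80% in recovery. For CTCF-bound sites the values at equal length were 96.6% against 93.9% without stress, and 38.2% against 37.2% in recovery. At 1 h both lists of 3344 peaks had 1.03% of CTCF-free sites. The direction of the difference at CTCF-free sites without stress and in recovery therefore turned with list length. The sites seen in recovery with triptolide and in replicate 2 overlapped in part, 167 being in both, which is 59.2% of the 282 and 75.2% of the 222. 

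CTCF peaks were called under stress at few of the sites that the 3 CTCF lists without stress had left. None of the 487 had a CTCF peak in the 2 lists at 7.5 min or the list at 30 min, and 2, 3 and 5 had one in the 3 lists at 1 h (0.411, 0.616 and 1.03%, mean 0.684% ± 0.314, SD, n = 3). This rests on CTCF replicate 3 in the rule, since without that list the rule gave 739 sites, of which 6.95% on average had a CTCF peak at 1 h. More were in the CTCF recovery library and in the unstressed triptolide library. These were the longest CTCF lists of the second set, with 46377 and 41718 peaks, against 38571 without stress and 22018 at 1 h. They held 97.5 and 97.7% of CTCF-bound sites, a class that the rule defines by CTCF. Whether list length sets the counts at CTCF-free sites was not tested. In the CTCF recovery library 66 sites had a peak (13.6%, exact 95% interval 10.6 to 16.9%), 41 of them near gene ends, with a median percentile of fold of 8.83 in that list. With triptolide, 23 sites had one without stress (4.72%), 4 at 1 h (0.821%) and 5 in recovery (1.03%). There is 1 library behind each of these values. In all, 79 CTCF-free sites (16.2%) had a peak in at least 1 of the 13 CTCF lists, so 408 met CTCF in none, and of those 20.8% were near a gene end.

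Over 15 gene lists with 315 distinct genes, 9 genes (2.86%) had a CTCF-free site near an end, while 141 of all 19970 protein-coding genes did (0.706%). Among 30 luminal breast identity genes, 3 did (10%), ELF3, CLDN4 (a tight junction protein) and GRHL2 (an epithelial transcription factor), and the GRHL2 site was still in the 1 h list of replicate 2. Of the same 30 genes, 12 had a CTCF-bound site near an end, so the luminal share is not shown to be particular to CTCF-free sites. Among 25 oestrogen and progesterone targets, NRIP1, a corepressor of nuclear receptors, had a site lost at 1 h and absent in recovery. Among 30 immediate early genes, DUSP6, a phosphatase that switches off ERK, had 2 sites and JUNB, an AP-1 subunit, had 1, all lost at 1 h, present in recovery replicate 2 and in both Pol II lists without stress and at 1 h. Of 45 cytosolic ribosomal protein genes, RPL14 and RPL18 had a site, both lost at 1 h and absent in recovery. Of 24 HOX genes, HOXB2, a patterning factor, had 2 sites, of which 1 was still in the 1 h list of replicate 2. The nearest CTCF peak without stress was 149 bp away at NRIP1 and 393 bp at 1 DUSP6 site. The other DUSP6 site and the CLDN4 site had a peak in the CTCF recovery library. The sites at GRHL2, JUNB, RPL14 and RPL18 had no peak in any CTCF list and none without stress within 1 kb. The other 10 lists, among them the NFAT5 osmolyte pathway, cohesin and CTCF factors and heat shock chaperones, had 0 genes with a site. The lists are small, were chosen with earlier results known, and no enrichment was tested.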

How the data were processed

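Chromatin immunoprecipitation of RAD21, CTCF and Pol II from T47D was deposited as 29 peak lists, 1 per library, out of 41 samples, and the other 12 are inputs without a list. Per the submitters' processing notes, cutadapt, Bowtie2 2.2.6, MACS2 and the build hg38 were used, with DiffBind 2.4.6, DESeq2 and HOMER named for part of the samples; the sources used here do not give their settings or roles. RAD21 and CTCF lists are narrow peaks, none with a -log10 q under 1.3, and Pol II lists broad regions. The authors' lists give each peak a fold enrichment (a ratio to the caller's background), deposited -log10 p and -log10 q values, a deposited score and, in narrow lists, a summit offset, which served to order, select or describe the peaks of that list and nothing else.

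Sites and genes were compared on chromosomes 1 to 22 and X in Python 3.11.15 (scipy 1.17.1, pandas 2.3.3, numpy 2.4.6) on 1 bp overlaps. Genes are 19970 protein-coding spans of RefSeq GRCh38.p14 without strand, of which 15811 have a start in a promoter table that leaves out chromosome 8. Shares per library were compared by exact 2-sided permutation over libraries, and classes within a library by sign permutation. Intervals are exact Clopper-Pearson 95% and, like the limits of 3 sites for a count of 0, cover counting error only. The scripts were tested on simulated lists. No lists were identical (0 pairs). Deviations of same-numbered RAD21 libraries at 1 h and in recovery were weakly and positively correlated (r = 0.0666, 0.0315 and 0.105 across 17443 sites). Libraries of unlike number had r of -0.0970 to 0.0266. Numbers were not taken as pairs in the main tests, and p-values with the number as a block are given below.

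The sites, gene lists and tests were chosen with earlier results of these data known. Named near gene ends are up to 8 sites per fate, and far from genes 4 sites, with the highest percentile of fold in the list where they rank lowest, together with sites near list genes. ESR1, LRRC8A, TMEM135, the chromosome 1 sites, the sites in all recovery lists and ALKBH2 were added after seeing values. The 15 motifs were searched on both strands, overlaps allowed. Besides those spelled out with the results they were the CTCF core, NRF1, YY1, ERE and ZNF143 motifs by name, the AP-1 letters TGANTCA, the cyclic AMP response element TGACGTCA, the motif of GATA factors AGATAAG, the grainyhead motif AACCGGTT, the E-box for MYC-like factors CACGTG and, for the NF-Y box, CCAATCAG.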

Additional observations from a re-analysis of the deposited data

How the results depend on the processing

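Of 271 recomputed values, 218 met the criterion for no change: for a difference the same sign, for a share a move within the spread between libraries (or the 95% interval), for a count a move within 1.5 times. The spread in recovery is wide, so this covers large moves there: 2.33% of CTCF-free sites had RAD21 in recovery at equal list length and 5.65% without recovery replicate 2, against 19.0% reported, and recovery minus 1 h was 1.03 and 1.33 points, against 14.6. The others follow, and the cause of each move was not tested beyond the change named. Sites in all 3 RAD21 lists numbered 92, of which 73 were lost at 1 h; 31.5% were near a gene end, 0.362% had CTCF at 1 h, 100% had RAD21 in unstressed, 0% in 1 h and 83.7% in recovery triptolide cells. Gene-end shares were 22.7% with no CTCF peak within 1 kb, 20.8% with none in any CTCF list, 22.7% with RAD21 peaks of -log10 q of at least 5 and 32.0% within 2.5 kb. That q threshold also gave 285 lost sites and 65.9% in triptolide recovery. Pol II regions of -log10 q of at least 1.3 held 47.4% of sites without stress. Triptolide lists of equal length gave 71.9% and, in recovery, 2.67%. Without the ESR1, LRRC8A and chromosome 1 sites, 0% had RAD21 at 1 h with triptolide. In promoters of sites in all 3 lists, GATA was in 0%, NRF1 in 0%, YY1 in 5.41% and SP in 18.9%.

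The change of the gap between classes, recovery minus 1 h, had no stable sign. It was 12.9 points for sites in all 3 lists, 2.196 with the q threshold, 0.692 at equal list length, 6.26 in the second set alone and 0.312 without the ESR1, LRRC8A and chromosome 1 sites. With the replicate number as a block, p was 0.25 for recovery minus 1 h at CTCF-free sites, 1 for the gap and 0.5 for Pol II, which changed no call.

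Leaving out 1 library at a time gave 130 to 739 sites, 105 to 604 lost and 0 to 5 kept at 1 h (5 without 1 h replicate 2, 1 without 1 h replicate 1). The ranges were 16.2 to 48.7% near a gene end, 3.07 to 27.3 points for its gap to CTCF-bound sites, 1.44 to 6.95% with RAD21 at 1 h, 5.65 to 30.2% in recovery, 1.33 to 23.7 points for recovery minus 1 h, -42.0 to -28.3 and -35.3 to -25.7 points against CTCF-bound sites at 1 h and in recovery, -4.51 to 8.18 points for the change of that gap, 75.2 to 84.8% in Pol II regions, -40.9 to -31.2 points for Pol II at 1 h, 0.256 to 6.95% with CTCF at 1 h, and 94.2 to 99.2%, 0 to 1.397% and 52.6 to 77.7% with RAD21 in unstressed, 1 h and recovery triptolide cells. Without CTCF replicate 3 the rule gave 739 sites, without RAD21 replicate 1 or 3 it gave 130 and 193. Peak lists carry no read depth, so a site without a peak is below the caller's threshold in that library and not shown to be empty.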

Other observations

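Most CTCF-free sites stood alone, and some lay in groups. Joined at distances of up to 50000 bp, 374 stood alone, 40 groups held 2 sites and 9 groups held 3 to 6. The group of 6 was the chromosome 1 stretch set apart above. CTCF-bound sites were not joined in the same way, so grouping is not shown to be a trait of CTCF-free sites. Around TOB1, an antiproliferative gene, 5 sites lay together (chr17:50865946-50944926) with no CTCF-bound cohesin site between them, 2 of them inside the gene. Of the 5, 4 were lost at 1 h, 4 were in both Pol II lists without stress and all 5 were in the triptolide recovery list. Groups of 3 were at MAML3, a coactivator of Notch (chr4:140150858-140154546, 3 of 3 lost at 1 h and, of the recovery lists without triptolide, in replicate 2 alone), and at HOXB1 and HOXB2 (chr17:48522151-48544841, 2 of 3 lost). Around ST3GAL1, a sialyltransferase, 4 sites lay together (chr8:133570358-133621356), 3 of them inside the gene, and 3 of the 4 were lost at 1 h.

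In 237 genes at least 1 CTCF-free site lay inside the span, 265 sites in all. ESR1, GSE1 and RAD51B held 4 each and MAML3 and ST3GAL1 held 3. Genes with 2 included GRHL2, KRT7 (a keratin of glandular epithelium), FOXP1, ZMIZ1 and NR2F2. Chromosome 3 held 57 of the 487 sites (11.7%), against 7.16% of CTCF-bound sites. Sites lost at 1 h but in at least 2 recovery lists (20) had a median mean percentile of fold without stress of 40.0, those in 1 recovery list (165) of 14.4, those in no recovery list (245) of 19.7 and those still in a 1 h list (57) of 14.6. These percentiles are values the rule used, so they are a description only.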
